A study of Mus musculus with 12 samples.

Results

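The genes described here are the 2 mouse interleukin-22 copies, Il22 and Iltifb, together with Ahr, Il23r, Il17a, Il1r1 and Ccr6, which encode a transcription factor, a cytokine and receptors of type 17 lymphocytes. They are 7 of the 54351 genes of the deposited table and were found by their symbols. They were picked on a reading of these same 12 libraries, with the CPM levels of all 7 already known, so those levels and the differences between groups are given as a description, with no test. The libraries fall into 4 groups of 3. LN3 thymus and LN3 spleen hold T-cell acute lymphoblastic leukaemia cells (T-ALL, a cancer of immature T cells) from overtly sick LN3 transgenic mice of the C57BL/6 strain. WT thymocytes and WT CD8 cells come from tumour-free wild-type mice labelled with the same strain and given as C57BL/6J in the design text. The labels name neither the LN3 transgene's promoter nor any treatment, time or age. All organs were dissociated mechanically, and of the 4 groups WT CD8 alone was enriched, by negative selection from spleen to a stated purity of 85 to 95%. In the spleen comparison, the LN3 leukaemia and the lack of CD8 enrichment therefore cannot be told apart.

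Interleukin-22 is a cytokine of the interleukin-10 family that lymphocytes release and that acts on epithelial cells through a receptor made of Il22ra1 and Il10rb. It is made by type 17 helper T cells, by a class of gamma-delta T cells and by type 3 innate lymphoid cells, in which the ligand-activated factor Ahr acts on Il22. Interleukin-23 and interleukin-1, sensed through Il23r and Il1r1, maintain these cells, Ccr6 guides them to tissue, and Il17a is their signature cytokine.

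Il22 and Iltifb are shown by sequence because the estimated counts of the copies rest on the parts of their transcripts that differ. In the GENCODE annotation of GRCm38, Il22 lies at chr10:118204942-118210047 on the plus strand and Iltifb at chr10:118289629-118295038 on the minus strand, 79581 bases apart. Their coding sequences are both 540 bases long with the stop codon and differ at 9 positions (98.3% identity). Of the 1080 distinct 31-base words of the Il22 transcript, 579 (53.6%) also occur in a transcript of Iltifb, so that a read from those words fits both genes. The stretch below, coding bases 101 to 260 counted from the A of the start codon, holds 6 of the 9 differing positions, in capitals (G106A, A150G, C188T, T213C, C217T and G258A, Il22 base first).
Il22: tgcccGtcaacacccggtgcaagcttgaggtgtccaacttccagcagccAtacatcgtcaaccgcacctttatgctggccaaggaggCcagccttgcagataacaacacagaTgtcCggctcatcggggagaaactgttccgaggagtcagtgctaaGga
Iltifb: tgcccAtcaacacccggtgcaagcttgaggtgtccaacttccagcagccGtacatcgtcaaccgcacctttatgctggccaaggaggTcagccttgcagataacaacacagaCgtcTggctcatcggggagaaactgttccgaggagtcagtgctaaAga

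The windows around the annotated starts, from RefSeq (GRCm38.p6), are shown because the copies part company there. Each holds 250 bases before the start and 50 after it, chr10:118204714-118205013 (plus strand) for Il22 and chr10:118294989-118295288 (minus strand) for Iltifb. Capitals mark the 102 bases that align without a gap, with 4 mismatches (96.1% identity). In the 171 bases before that stretch, 42 (24.6%) are identical at the same offset.
Il22: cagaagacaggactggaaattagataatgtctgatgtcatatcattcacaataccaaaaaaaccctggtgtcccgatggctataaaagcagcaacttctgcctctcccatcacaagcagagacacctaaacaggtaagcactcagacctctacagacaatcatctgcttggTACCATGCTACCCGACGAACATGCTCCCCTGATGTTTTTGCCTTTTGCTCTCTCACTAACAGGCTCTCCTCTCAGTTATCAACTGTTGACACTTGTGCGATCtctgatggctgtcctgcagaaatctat
Iltifb: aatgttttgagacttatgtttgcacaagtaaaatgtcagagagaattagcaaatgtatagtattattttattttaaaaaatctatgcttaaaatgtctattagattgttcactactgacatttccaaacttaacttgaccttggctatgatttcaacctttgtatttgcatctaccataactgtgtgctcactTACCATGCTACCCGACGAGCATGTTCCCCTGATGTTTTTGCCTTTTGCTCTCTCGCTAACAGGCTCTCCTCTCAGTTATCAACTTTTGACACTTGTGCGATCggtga

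Of the 7 genes, 6 have such a window (8 windows in all), and Ahr has none. Searched on both strands with overlaps allowed, GCGTG, the core bound by the aryl hydrocarbon receptor, occurs in neither interleukin-22 window and in both Il1r1 windows, against 32.4% of all 32851 windows. The STAT motif TTCNNNGAA occurs in 1 of the Ccr6 windows and in no other window of these genes, against 8.3% of all windows.

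Both interleukin-22 copies had counts in all 6 LN3 libraries and in no WT library. Levels are given in CPM, estimated counts on the counts-per-million-reads scale after library totals were scaled with TMM factors. Il22 had 11.97, 9.10 and 3.63 CPM in LN3 thymus 1, 2 and 3, against 0 CPM in each of the 3 WT thymocyte libraries. In the spleen it had 1.13, 1.25 and 13.9 CPM in LN3 libraries 1, 2 and 3, against 0 CPM in each WT CD8 library. LN3 spleen 3 thus stood above the highest LN3 thymus library, and the other LN3 spleen libraries stood below every LN3 thymus library.

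Iltifb followed the same order, with 16.8, 11.7 and 6.53 CPM in LN3 thymus 1, 2 and 3, against 0 CPM in each WT thymocyte library. It had 1.83, 2.49 and 19.4 CPM in LN3 spleen 1, 2 and 3, against 0 CPM in each WT CD8 library. The raw estimated counts behind these values ran from 110 to 285 for Il22 and from 141 to 399 for Iltifb in LN3 thymus, and from 13 to 245 and from 21 to 340 in LN3 spleen. A WT library without counts allows up to 3 counts, which is 0.0657 to 0.258 CPM over the WT libraries.

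**Figure D1:**
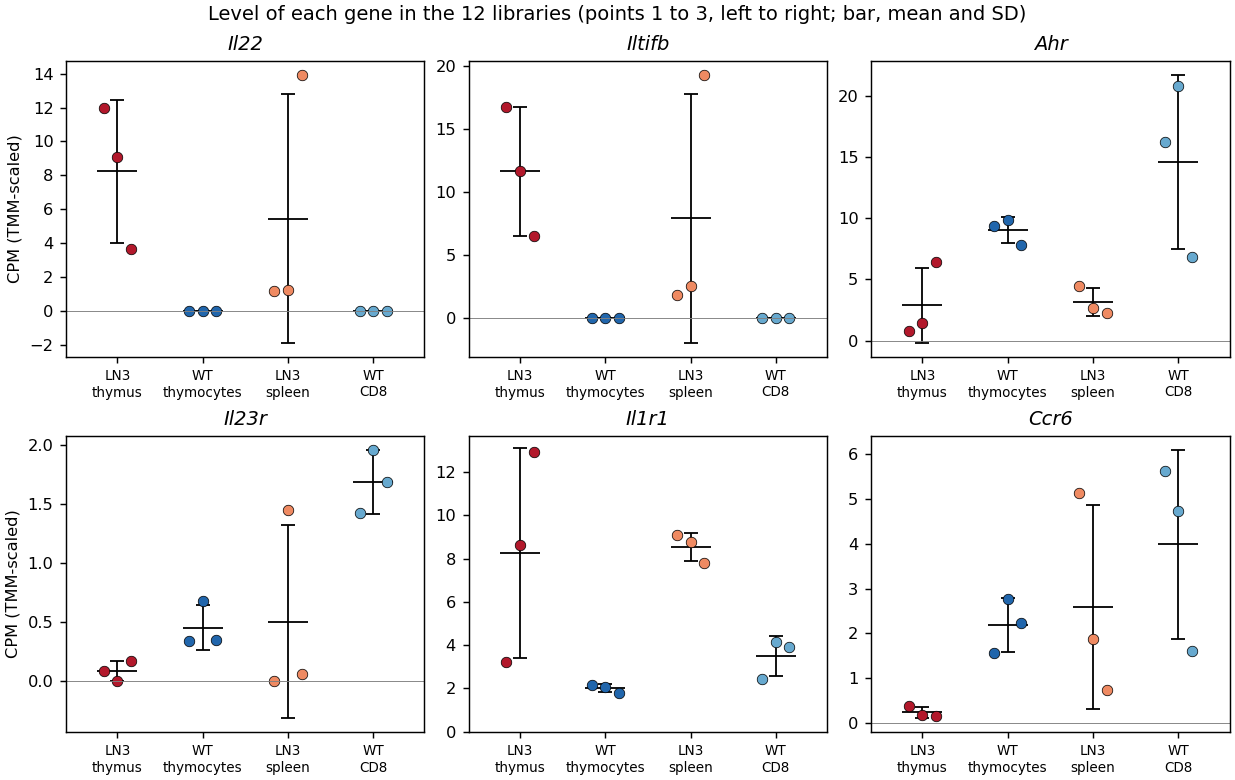
Levels in CPM (linear axes) of 6 of the genes in each library, grouped with LN3 left of its WT group in each organ. Points are libraries 1 to 3 from left to right and bars are the mean with the SD of 3 libraries. Il22 and Iltifb lie at 0 in all 6 WT libraries, and Il1r1 lies above its WT group in all 6 LN3 libraries.

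Taken at 3 counts per WT library, Il22 was at least 38.3-fold and Iltifb at least 54.2-fold higher in LN3 thymus than in WT thymocytes. In LN3 spleen, Il22 was at least 50.3-fold and Iltifb at least 73.0-fold higher than in WT CD8 cells. Because read pairs that fit both copies are divided between them by estimation, their sum is the firmer value. The sum was 28.7, 20.8 and 10.2 CPM in LN3 thymus and 2.96, 3.74 and 33.3 CPM in LN3 spleen, at least 92.5-fold and at least 123-fold above the WT group of the organ. Without LN3 spleen 3 the spleen bound is 30.97-fold. LN3 spleen 1 and 2 thus lay far below LN3 spleen 3 and below every LN3 thymus library.

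Between the LN3 organs the summed level averaged 13.3 ± 17.3 CPM in spleen and 19.9 ± 9.31 CPM in thymus (SD, n = 3 each), a log2 difference of -0.57 (SE 0.88). The organs overlap, and the difference is smaller than the spread between libraries. It is -2.56 without LN3 spleen 3.

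Iltifb took 56.2 to 66.7% of the counts of the pair in the 6 LN3 libraries. The lowest share was that of LN3 thymus 2, with an exact 95% Clopper-Pearson interval of 49.8 to 62.4%, and the highest that of LN3 spleen 2, with 57.8 to 74.7%. The 6 intervals all overlap one another, while the summed count ran from 34 to 684. Overlap is not a test, and whether the division between the copies differs between libraries was not tested. These intervals cover counting error only, and the error of the estimated division is not part of them.

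**Figure D2:**
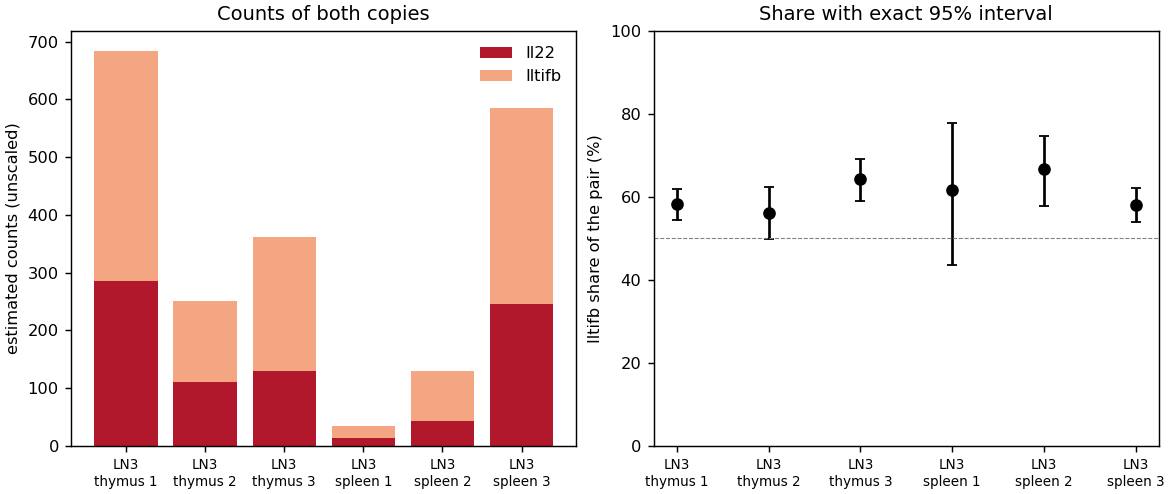
Left, unscaled estimated counts of Il22 and Iltifb stacked for the 6 LN3 libraries. Right, the share of Iltifb in the pair in percent with its exact 95% interval, on an axis from 0 to 100 with a dashed line at 50. The counts run from 34 to 684 while the shares run from 56.2 to 66.7%.

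Ahr, the ligand-activated factor that acts on Il22 in type 17 cells, lay lower in LN3 than in WT cells of the same organ. It had 0.798, 1.41 and 6.42 CPM in LN3 thymus 1, 2 and 3, against 9.39, 9.82 and 7.83 CPM in WT thymocytes. In the spleen it had 4.45, 2.66 and 2.28 CPM in the LN3 libraries, against 16.2, 20.8 and 6.79 CPM in WT CD8 1, 2 and 3. LN3 and WT libraries did not overlap in either organ, though LN3 thymus 3 and WT CD8 3 came close to the other group.

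The log2 difference of Ahr was -1.62 (SE 0.67) in thymus and -2.23 (SE 0.68) in spleen. In thymus it is -3.05 without LN3 thymus 3. In spleen it is -1.11 with WT CD8 3 as the only WT library, chosen after seeing the data because WT CD8 1 and 2 had summed myeloid marker levels of 1216 and 2945 CPM against 202.8 CPM in WT CD8 3. The part of those cells in the Ahr level was not tested. A yes-or-no term for a ribosomal RNA share above 3% of the counts, likewise tried after seeing the data, gives -3.18 in spleen. In spleen that share cannot be told apart from the group. The term is therefore estimated from the thymus groups alone, and its spleen values are extrapolations. From the lowest to the highest mean the order was LN3 thymus (2.88 ± 3.09 CPM), LN3 spleen (3.13 ± 1.16 CPM), WT thymocytes (9.01 ± 1.05 CPM) and WT CD8 cells (14.6 ± 7.13 CPM, SD, n = 3 each). The LN3 organs overlap each other, with a log2 difference of 0.09 (SE 0.66) for spleen minus thymus that becomes 1.52 without LN3 thymus 3, and the WT groups overlap too.

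Among the receptors, Il1r1, the signalling receptor for interleukin-1, was the member that lay above WT in LN3 cells. It had 3.23, 8.60 and 12.9 CPM in LN3 thymus 1, 2 and 3, against 2.16, 2.09 and 1.81 CPM in WT thymocytes. In LN3 spleen it had 9.07, 8.75 and 7.80 CPM, against 2.46, 4.14 and 3.92 CPM in WT CD8 cells. Each of the 6 LN3 libraries exceeded every WT library of its organ, and LN3 thymus 1 exceeded them by the least.

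The log2 difference of Il1r1 was 2.03 (SE 0.48) in thymus and 1.28 (SE 0.46) in spleen. The spleen value is 0.88 with library totals as the scaling. With the ribosomal RNA term, an extrapolation from the thymus groups, it is 0.48. From the highest mean the order was LN3 spleen (8.54 ± 0.658 CPM), LN3 thymus (8.25 ± 4.84 CPM), WT CD8 cells (3.51 ± 0.915 CPM) and WT thymocytes (2.02 ± 0.187 CPM, SD, n = 3 each). The LN3 organs overlap, with a log2 difference of 0.05 (SE 0.46) for spleen minus thymus, and the WT groups do not.

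Il23r, the specific chain of the interleukin-23 receptor, had few counts outside WT CD8 cells. It had 0.0840, 0 and 0.169 CPM in LN3 thymus 1, 2 and 3 (8 counts in all), against 0.338, 0.675 and 0.344 CPM in WT thymocytes (20 counts in all). It had 0, 1.45 and 0.0569 CPM in LN3 spleen 1, 2 and 3, against 1.42, 1.96 and 1.69 CPM in WT CD8 cells. LN3 spleen 2, with 50 of the 51 counts of its group, reached the WT CD8 range and the other LN3 spleen libraries did not.

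The log2 difference of Il23r was -2.11 (SE 1.17) in thymus and -1.57 (SE 0.93) in spleen, and the spleen value is -5.40 without LN3 spleen 2. LN3 spleen 2 also decides the sign between the LN3 organs, 2.42 (SE 1.12) for spleen minus thymus with it and -1.44 without it. The thymus value is -2.98 without LN3 thymus 3, and at 8 and 20 counts per group it allows no finer order. From the lowest mean the groups ran LN3 thymus, WT thymocytes, LN3 spleen and WT CD8 cells, and LN3 spleen overlaps every other group.

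Il17a, the signature cytokine of type 17 cells, was without a single count in all 12 libraries. The limit that a count of 0 allows is 0.0845 to 0.248 CPM in LN3 thymus, 0.0869 to 0.262 CPM in LN3 spleen, 0.184 to 0.258 CPM in WT thymocytes and 0.0657 to 0.164 CPM in WT CD8 cells. The LN3 libraries, with up to 684 interleukin-22 counts, were thus without a count of Il17a at this depth. Il17f, its closest relative, was detected at 0.165 to 0.840 CPM in LN3 thymus, 0.261 to 0.349 CPM in LN3 spleen, 0 to 0.307 CPM in WT thymocytes and 0.383 to 0.664 CPM in WT CD8 cells, too few counts to pass the filter.

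Ccr6, the receptor for the chemokine Ccl20, was lowest in LN3 thymus. It had 0.378, 0.165 and 0.141 CPM in LN3 thymus 1, 2 and 3, against 1.55, 2.76 and 2.24 CPM in WT thymocytes. In LN3 spleen 1, 2 and 3 it had 5.15, 1.88 and 0.740 CPM, against 5.63, 4.75 and 1.60 CPM in WT CD8 1, 2 and 3. The groups did not overlap in thymus and overlapped in spleen, and Ccl20 itself had no count in any library.

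The log2 difference of Ccr6 was -3.22 (SE 0.78) in thymus and -0.64 (SE 0.67) in spleen. In spleen it is -1.56 without LN3 spleen 1, and 0.70, the opposite sign, with WT CD8 3 as the only WT library. LN3 spleen minus LN3 thymus was 3.44 (SE 0.79), with no overlap, and 2.52 without LN3 spleen 1. B cells carry Ccr6, and the summed level of 6 B-cell markers was 2068, 497 and 275 CPM in LN3 spleen 1, 2 and 3, the same order as Ccr6 there. It was 284 to 464 CPM in LN3 thymus and 480 to 1334 CPM in WT CD8 cells. All 6 B-cell markers had counts in every library, and their part in the Ccr6 level was not tested.

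Across the 12 libraries Il22 and Iltifb were correlated at r = 0.994 on the scale log2(CPM + 1), and at 0.994 within the 6 LN3 libraries alone. Reads that fit both copies are divided by estimation, and the part of that division in the correlation was not tested. The summed pair had its largest correlations with Tcte2 (r = 0.969), Lrrc66 (0.966), Adamtsl3 (0.964), Gm41414 (0.963) and Adamts20 (0.961). All 5 were higher in the LN3 groups, as Adamts20 shows, with means of 27.0 CPM in LN3 thymus, 20.7 in LN3 spleen, 0.278 in WT thymocytes and 0.222 in WT CD8 cells. Ahr was most like Stx7 (0.954), Gnaq (0.937) and Mdfic (0.934), Il23r most like Gm5421 (0.945), Ret (0.921) and Fam124b (0.913), and Il1r1 most like Tsga10ip (0.955), Zscan12 (0.944) and Cbr4 (0.943). Ccr6 was most like Zfp608 (0.946), Blk, a kinase gene of B cells (0.941), and F730016J06Rik (0.928). These correlations describe 12 libraries that fall into 4 groups, so they mostly carry the group differences, and they have no p.

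Within the 6 LN3 libraries alone, Ahr and the interleukin-22 copies ran in opposite directions, with r = -0.65 for Il22 and -0.61 for Iltifb. The library with the least Ahr, LN3 thymus 1, had the highest Il22 level of the thymus group. Ccr6 and Iltifb had r = -0.77 and Ahr and Il1r1 r = 0.84 over the same 6 libraries, which include both organs and differ in depth. The summed myeloid markers had 51.7, 167 and 323 CPM in LN3 thymus 1, 2 and 3, the same order as Ahr and Il1r1 there. In LN3 spleen 1, 2 and 3 they had 1388, 268 and 424 CPM, a different order from either gene. The part of myeloid cells in these levels was not tested.

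Total estimated counts per library ran from 12694571 to 42483898. The T-cell markers, 9 of 9 of which had counts in every library, summed to 4292 to 7896 CPM in LN3 thymus, 5038 to 5658 in LN3 spleen, 4898 to 10063 in WT thymocytes and 2299 to 3551 in WT CD8 cells. A ribosomal RNA gene, CT010467.1, took 4.61 to 10.5% of the counts in LN3 thymus 2 and 3, all LN3 spleen libraries and WT thymocytes 3, and 0.440 to 1.45% in the other 6. In spleen this share cannot be told apart from the group. In thymus both levels occur in both groups, but each level leaves 1 group with a single library, and since the groups of the 4 genes named next do not overlap in thymus, the sign within a level is fixed and only the sizes are given. Among libraries with the low share, LN3 thymus 1 against WT thymocytes 1 and 2, log2 ratios of mean CPM were -3.59 for Ahr, -2.59 for Il23r, 0.61 for Il1r1 and -2.51 for Ccr6. Among those with the high share, LN3 thymus 2 and 3 against WT thymocytes 3, they were -2.03 for Il23r, 2.57 for Il1r1 and -3.87 for Ccr6, and Ahr had means of 3.91 CPM in LN3 thymus and 7.83 CPM in WT thymocytes. The summed interleukin-22 level was 28.7 CPM in LN3 thymus and 0 in WT thymocytes within the low share, and 15.5 CPM and 0 within the high share. In bulk samples, fewer cells of a type and less RNA per cell cannot be told apart.

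The cells known to make interleukin-22 were checked by their markers. Of the gamma-delta T-cell list, 8 of 8 markers had counts in every library, and they summed to 259 to 313 CPM in LN3 thymus and 151.3 to 192 CPM in WT thymocytes, and to 196 to 233 CPM in LN3 spleen and 123 to 153 CPM in WT CD8 cells. Trdc, the constant segment of the delta chain, had 0.0563 to 0.579 CPM in LN3 thymus against 75.2 to 79.7 CPM in WT thymocytes, and 0.319 to 5.58 CPM in LN3 spleen against 15.9 to 45.8 CPM in WT CD8 cells. Cd163l1, a scavenger receptor of gamma-delta T cells, had 141 to 180 CPM in LN3 thymus against 5.81 to 13.2 CPM in WT thymocytes, and 77.3 to 83.4 CPM in LN3 spleen against 17.4 to 39.9 CPM in WT CD8 cells. The delta-chain marker was thus near 0 in 5 of the 6 LN3 libraries, while Cd163l1 and Sox13 accounted for most of the list's sum there. The gamma-chain constant segments varied. In LN3 thymus 1, 2 and 3, Tcrg-C4 had 16.8, 42.8 and 0.310 CPM, against 4.82 to 11.7 CPM in WT thymocytes. Tcrg-C2 had 45.2, 9.84 and 0.929 CPM there, against 21.2 to 28.3 CPM. Tcrg-C1 was lower in LN3, at 0.225 to 11.2 CPM against 12.2 to 20.5 CPM. In LN3 spleen 1, 2 and 3, Tcrg-C4 had 15.9, 0.348 and 8.03 CPM, against 5.56 to 11.4 CPM in WT CD8 cells.

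The 7 markers of type 3 innate lymphoid cells summed to 189 to 289 CPM in LN3 thymus against 514 to 727 CPM in WT thymocytes, and to 181 to 242 CPM in LN3 spleen against 550 to 940 CPM in WT CD8 cells. Of these 7, 6 had counts in every LN3 library of each organ. The exception, Ncr1, was at 0.0420, 0.496 and 0 CPM in LN3 thymus and at 1.48, 0 and 0 CPM in LN3 spleen. Il7r, a receptor these cells depend on, had 4.38 to 8.59 CPM in LN3 thymus against 20.7 to 74.0 CPM in WT thymocytes, and 7.69 to 24.4 CPM in LN3 spleen against 387 to 837 CPM in WT CD8 cells. Other members of the list did not follow the sum. Nrp1, a surface receptor, had 87.1 to 141 CPM in LN3 thymus against 33.7 to 47.6 CPM in WT thymocytes, and 52.3 to 82.6 CPM in LN3 spleen against 6.11 to 27.1 CPM in WT CD8 cells. Id2, a regulator of innate lymphoid cells, had 24.4 to 55.3 CPM in LN3 thymus against 15.3 to 21.6 CPM in WT thymocytes, and overlapped in spleen. The part of either cell type in the interleukin-22 levels was not tested.

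**Figure D3:**
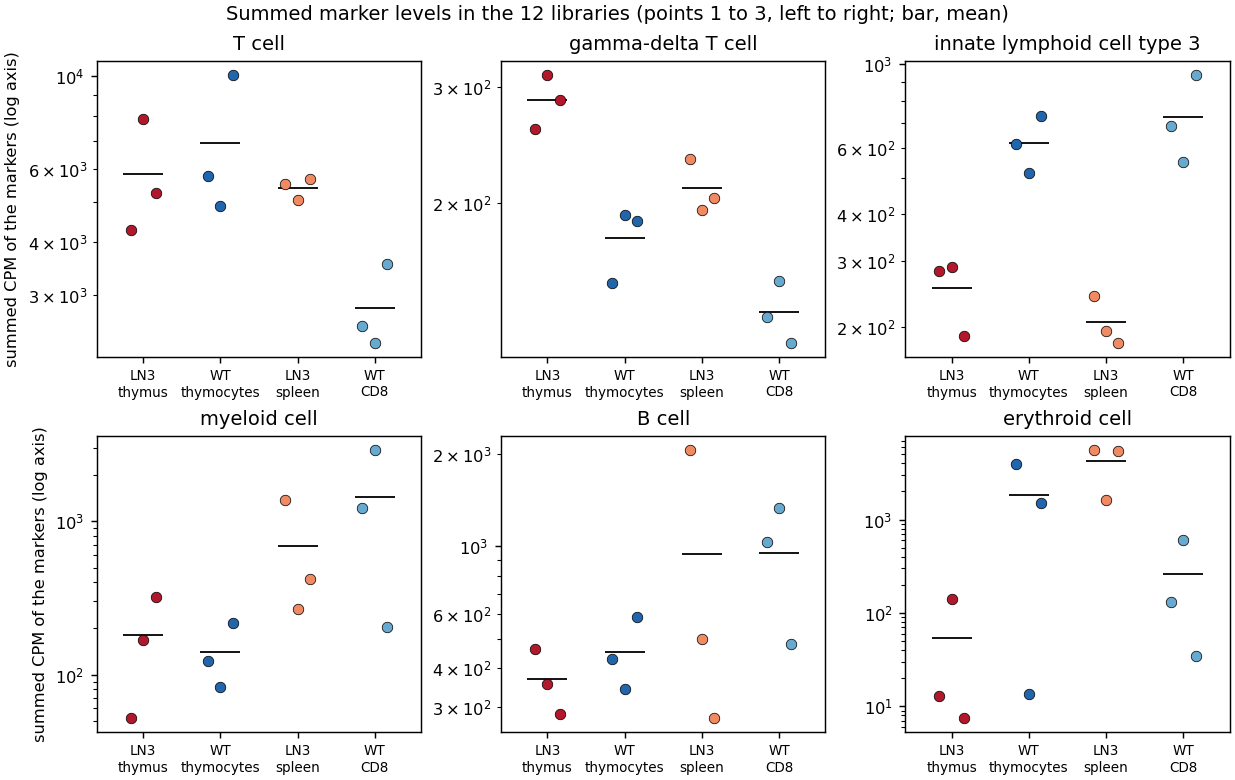
Summed CPM (log axes) of the marker lists of 6 cell types in each library, LN3 left of its WT group in each organ, with points for libraries 1 to 3 from left to right and a bar for the mean. The gamma-delta list lies higher and the innate lymphoid list lower in LN3 libraries of both organs, and LN3 spleen 1 has the highest B-cell sum, at 2068 CPM.

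To place the 7 genes in their pathway, 70 further genes in 8 lists were tested with edgeR's quasi-likelihood test, with Benjamini-Hochberg adjustment over the 20897 genes tested and a threshold of 0.05 on the adjusted p. Of the 70 genes, 55 passed the filter on low counts. The lists were chosen with earlier results of these data known. Their shares beside those of all genes are therefore a description, not a test of the lists. The labels leave it unsaid whether a group's samples are separate mice, so each p-value speaks of the spread among these libraries, which may be technical. In LN3 thymus against WT thymocytes, 6 of the 55 rose and 13 fell, 10.9% and 23.6%, against 6.06% and 5.21% of all genes tested. The median log2 difference was -0.38 over the 55 genes and -0.04 over all genes, and the first is the same with Il10 at its fitted value or at its bound. Without WT thymocytes 1, 3 of the genes rose.

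Of the receptors and signal carriers of interleukin-22, Il10rb, the shared receptor chain, fell in LN3 thymus to 6.29 ± 3.06 CPM, against 15.4 ± 2.99 CPM in WT thymocytes (SD, n = 3 each), a log2 difference of -1.28 (SE 0.36) with an edgeR adjusted p of 0.0350. The call is lost in 11 of 23 alternative settings, among them the replicate block and the fit of the 2 groups alone, with adjusted p up to 0.117. The specific chain Il22ra1 had 0 to 0.0282 CPM in LN3 thymus and 0 CPM in WT thymocytes. Il10, the family's anti-inflammatory founder, rose with 1.18, 1.65 and 2.65 CPM in LN3 thymus against 0 in each WT thymocyte library, at least 8.5-fold (edgeR adjusted p = 0.00878).

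Of the 5 type 17 cytokines tested in thymus, 1 rose and 2 fell. Tnfsf11, which encodes the ligand RANKL, had 14.5, 20.1 and 35.0 CPM in LN3 thymus against 4.26, 4.17 and 2.24 CPM in WT thymocytes (log2 difference 2.70, SE 0.43, edgeR adjusted p = 0.00188). Il21, a helper T-cell cytokine, fell to 0.205 ± 0.127 CPM in LN3 thymus, against 1.26 ± 0.448 CPM in WT thymocytes, and Lta, lymphotoxin alpha, to 1.22 ± 0.345 CPM, against 3.67 ± 1.29 CPM (SD, n = 3 each). The Lta call is lost in 14 of 23 alternative settings, and the Il21 call in 2 of 22, without LN3 thymus 3 and without WT thymocytes 1 (adjusted p up to 0.0582). Of 6 inducing cytokines, 1 fell: Tgfb1 was at 38.6 ± 10.02 CPM in LN3 thymus and 137 ± 58.4 CPM in WT thymocytes.

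Among 13 receptors and partners in thymus, 5 fell and none rose. Il17rc and Il17re, receptor chains for interleukin-17 cytokines, had log2 differences of -2.64 (SE 0.54) and -2.57 (SE 0.51), and with limma on the log2 table the adjusted p of Il17rc is 0.194. Il12rb1, the chain that Il23r pairs with, was at 59.2 ± 24.7 CPM in LN3 thymus and 44.2 ± 14.3 CPM in WT thymocytes (log2 difference 0.42, SE 0.35, edgeR adjusted p = 0.516). The other 3 that fell were Il17ra, Il18r1 and Il21r, named after their values were seen.

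Of 12 type 17 transcription factors in thymus, 3 rose and 2 fell. The 7 markers of immature thymocytes that carry both Cd4 and Cd8 summed to 1084 to 2138 CPM in LN3 thymus against 8306 to 12288 CPM in WT thymocytes, and the part of that stage in these counts was not tested. Sox13, a factor of gamma-delta type 17 cells, rose to 73.6 ± 22.3 CPM in LN3 thymus, against 11.9 ± 6.17 CPM in WT thymocytes (log2 difference 2.63, SE 0.36, edgeR adjusted p = 0.000682). Irf4 rose to 99.2 ± 72.7 CPM in LN3 thymus, against 16.6 ± 3.99 CPM in WT thymocytes (log2 difference 2.58, SE 0.57, adjusted p = 0.0116), and its adjusted p is 0.0541 without WT thymocytes 1.

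Around Ahr in thymus, 1 of 6 partners and targets rose and 1 fell. Arnt, the partner with which Ahr binds DNA, had 57.5, 40.4 and 46.1 CPM in LN3 thymus, against 86.8, 93.4 and 109 CPM in WT thymocytes (ratio of means 0.499, SE of the log2 difference 0.21, edgeR adjusted p = 0.00912). Cyp1b1, an Ahr target, had 0.336, 0.910 and 3.605 CPM in LN3 thymus, against 0.0676, 0 and 0 CPM in WT thymocytes, a single count. The ratio of summed counts was 88.0, with a 95% counting interval of 15.5 to 3497. Without LN3 thymus 3, which holds 128 of the 147 counts, it was 22.6 (3.595 to 939.6), and the call is lost without WT thymocytes 1 or 2 (edgeR adjusted p = 0.0516 and 0.0608). Cyp1a1, the classical Ahr target, had at most 0.141 CPM in LN3 thymus and 0 CPM in WT thymocytes, and Ahrr, the Ahr repressor, did not pass the test (log2 difference -0.75, SE 0.56). The regulators of other helper lineages held 1 gene that fell, Bcl6, at 27.7 ± 3.38 CPM in LN3 thymus and 156 ± 27.0 CPM in WT thymocytes.

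**Figure D4:**
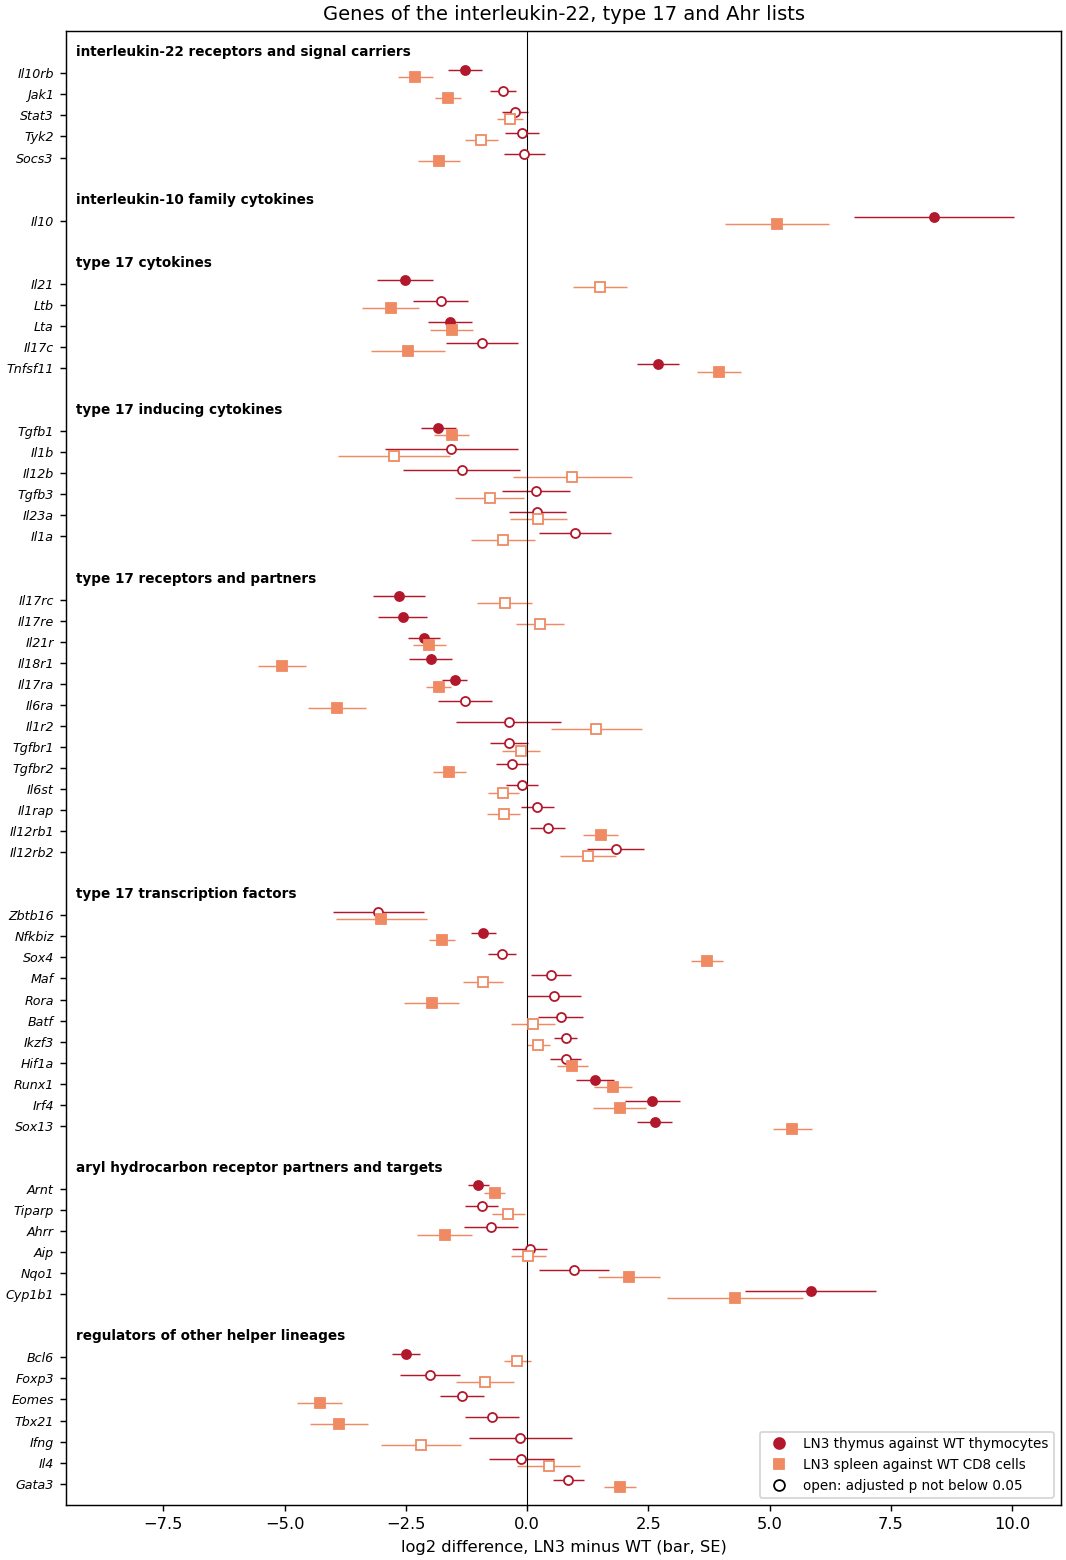
Log2 differences, LN3 minus WT, with SE bars, for all but 1 of the 55 tested genes of the 8 lists in thymus (circles) and spleen (squares), filled where the adjusted p was below 0.05. Sox13 is filled on the higher side in both organs (2.63 in thymus and 5.47 in spleen), and Il10rb on the lower side in both (-1.28 and -2.30). The fitted values of Il10 and Cyp1b1 rest on WT groups with 0 to 4 counts.

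In LN3 spleen against WT CD8 cells, 12 of the 55 genes rose and 19 fell, 21.8% and 34.5%, against 17.9% and 13.0% of all genes tested. The share that rose is thus near the background and the share that fell is above it. That excess is a description, since the lists were chosen with earlier results of these data known. Between the WT groups, too, 40% of the 55 genes were called, against 15.7% of all genes tested. The median log2 difference was -0.48 over the 55 genes and -0.11 over all genes. With WT CD8 3 as the only WT library 7 rose and 12 fell, and with the ribosomal RNA term 6 rose, and both were tried after seeing the data. The ribosomal RNA term is estimated from the thymus groups alone, so its spleen count is an extrapolation. The 6 erythroid markers, all with counts in every library, summed to 1613 to 5603 CPM in LN3 spleen and 34.9 to 608 CPM in WT CD8 cells. The part of such cells in the genes called was not tested. Over all genes, 58.0% of calls were higher in spleen and 53.8% in thymus with TMM scaling, against 40.0% and 38.2% with library totals, a change of scaling that shifted the all-gene median by -0.40 and -0.20 (log2).

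Il10rb fell in spleen too, to 14.1 ± 4.81 CPM in LN3, against 69.4 ± 4.53 CPM in WT CD8 cells (SD, n = 3 each; log2 difference -2.30, SE 0.36, edgeR adjusted p = 0.000692). Socs3, a feedback inhibitor induced by interleukin-22 signalling, was at 24.4 ± 9.07 CPM in LN3 spleen and 85.7 ± 21.2 CPM in WT CD8 cells. Il22ra1 had 0 CPM in each LN3 spleen library and at most 0.0316 CPM in WT CD8 cells. Il10 had 0.523, 1.45 and 3.70 CPM in LN3 spleen, against 0.164, 0.0316 and 0 CPM in WT CD8 cells, a 29.0-fold ratio of means (edgeR adjusted p = 0.00492). LN3 spleen 3, the library with the most interleukin-22, also had the most Il10, whereas in thymus the library with the most interleukin-22, LN3 thymus 1, had the least Il10.

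Tnfsf11 was again the 1 type 17 cytokine of 5 that rose, with 16.3, 15.7 and 11.8 CPM in LN3 spleen, against 1.31, 0.886 and 0.657 CPM in WT CD8 cells (log2 difference 3.96, SE 0.46, edgeR adjusted p = 9.57e-05). Of the same list 3 fell, Ltb, lymphotoxin beta, to 37.4 ± 27.3 CPM in LN3 spleen, against 262 ± 58.2 CPM in WT CD8 cells, Il17c to 0.145 ± 0.203 CPM, against 1.01 ± 0.192 CPM, and Lta. The Il17c call rests on few counts and is lost in 6 of 23 alternative settings. Among 13 receptors and partners 1 rose and 5 fell. Il12rb1 rose to 62.5 ± 18.4 CPM in LN3 spleen, against 21.8 ± 1.18 CPM in WT CD8 cells (log2 difference 1.52, SE 0.36, adjusted p = 0.00747, and 0.366 as the highest over the alternatives). Il18r1, the interleukin-18 receptor, and Il6ra, the interleukin-6 receptor, fell by 5.06 (SE 0.49) and 3.92 (SE 0.60) on the log2 scale.

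Of 12 transcription factors in spleen, 6 rose and 3 fell. Sox13 had 85.0, 90.6 and 89.8 CPM in LN3 spleen, against 1.64, 2.06 and 2.23 CPM in WT CD8 cells (log2 difference 5.47, SE 0.41, edgeR adjusted p = 3.72e-06). Sox4, a factor of immature lymphocytes, rose to 274 ± 44.9 CPM in LN3 spleen, against 20.8 ± 4.16 CPM in WT CD8 cells. Rora and Zbtb16 fell, to 6.85 ± 3.81 and 1.39 ± 0.924 CPM in LN3 spleen, against 26.9 ± 6.56 and 11.3 ± 1.42 CPM in WT CD8 cells. Their calls are lost in 5 and 7 of 23 alternative settings (adjusted p up to 0.551 for Rora and 0.176 for Zbtb16).

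Around Ahr in spleen, 2 of 6 rose and 2 fell. Arnt fell to 47.5 ± 6.21 CPM in LN3 spleen, against 75.6 ± 2.60 CPM in WT CD8 cells (log2 difference -0.67, SE 0.21, edgeR adjusted p = 0.0286), and Ahrr to 0.961 ± 0.248 CPM, against 3.18 ± 0.579 CPM (log2 difference -1.70, SE 0.57, adjusted p = 0.0376). Nqo1, a detoxifying enzyme that Ahr can induce, had 5.67, 2.92 and 6.49 CPM in LN3 spleen, against 0.546, 2.31 and 0.613 CPM in WT CD8 cells. Cyp1b1 had a ratio of summed counts of 27.1 (95% counting interval 4.27 to 1128) against a single WT CD8 count. The calls of Ahrr, Arnt, Nqo1 and Cyp1b1 in spleen were each lost in 8 to 11 alternative settings. Cyp1a1 was at 0.0872 to 0.145 CPM in LN3 spleen and 0.0546 to 0.109 CPM in WT CD8 cells. Of the regulators of other helper lineages, Gata3 rose, and Eomes and Tbx21, factors of cytotoxic T cells, fell to 5.05 ± 1.97 and 2.91 ± 1.74 CPM in LN3 spleen, against 99.2 ± 10.5 and 42.5 ± 18.3 CPM in WT CD8 cells.

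**Figure D5:**
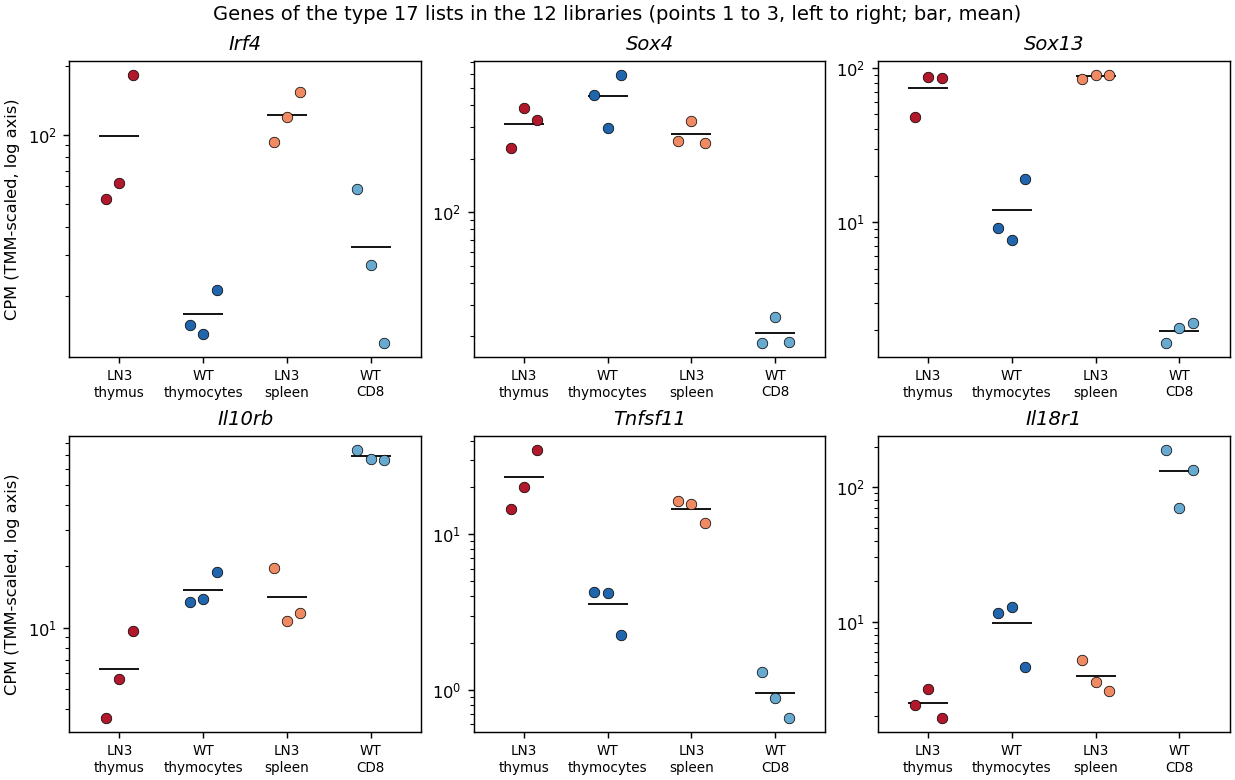
Levels in CPM (log axes) of Irf4, Sox4, Sox13, Il10rb, Tnfsf11 and Il18r1 in each library, LN3 left of its WT group in each organ, with points for libraries 1 to 3 from left to right and a bar for the mean. Sox13 lies above WT in LN3 thymus (47.8 to 87.1 CPM against 7.67 to 19.0 CPM) and in LN3 spleen (85.0 to 90.6 CPM against 1.64 to 2.23 CPM).

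Across the LN3 comparisons, which share no library, 6 of the 55 genes rose in both organs (Il10, Tnfsf11, Irf4, Runx1, Sox13 and Cyp1b1). Whether the LN3 organs share mice is not given in the labels. These are all 6 that rose in thymus and 6 of the 12 that rose in spleen. Over all genes tested, 880 (4.21%) rose in both, of 1266 that rose in thymus and 3740 that rose in spleen. Another 8 fell in both (Il10rb, Lta, Tgfb1, Il18r1, Il21r, Il17ra, Nfkbiz and Arnt), 8 of the 13 of thymus and 8 of the 19 of spleen. Over all genes tested, 590 (2.82%) fell in both, of 1088 that fell in thymus and 2713 that fell in spleen. The thymus call of Nfkbiz, a factor of type 17 cells, is lost in 15 of 23 alternative settings (edgeR adjusted p up to 0.154), and Runx1 is named here after its values were seen. The LN3 difference itself was tested between organs as an interaction in the same fit, in which 6 of the 55 genes were higher and 3 lower, against 3.29% and 0.895% of all genes tested. Sox4 was among the genes with a higher difference, at 4.23 (SE 0.43, edgeR adjusted p = 0.000595). An interaction takes in the WT groups as well as the LN3 groups. Mean Sox4 was 314.5 CPM in LN3 thymus and 274 CPM in LN3 spleen, against 450 CPM in WT thymocytes and 20.8 CPM in WT CD8 cells.

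Between LN3 spleen and LN3 thymus, 1 of the 55 genes was called, against 0.694% of all genes tested called higher and 0.0287% called lower. That gene was Eomes, at 5.05 ± 1.97 CPM in LN3 spleen and 1.12 ± 0.593 CPM in LN3 thymus (log2 difference 2.24, SE 0.46, edgeR adjusted p = 0.0461), a call lost in 18 of 24 alternative settings. By unadjusted p, 11 of the 55 were below 0.05, against 8.70% of all genes tested. DESeq2 called 3 genes higher and, like edgeR, none lower.

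Between the WT groups, 13 of the 55 genes were higher and 9 lower in WT CD8 cells than in WT thymocytes, against 7.24% and 8.49% of all genes tested. Sox4 was at 20.8 ± 4.16 CPM in WT CD8 cells and 450 ± 148 CPM in WT thymocytes, and Il18r1 at 131 ± 60.4 CPM in WT CD8 cells and 9.71 ± 4.44 CPM in WT thymocytes. With WT CD8 3 alone, 4 were higher and 3 lower. Among the 7 genes, Ahr and Ccr6 had log2 differences of 0.69 (SE 0.65) and 0.86 (SE 0.68) between the WT groups, which turn to -0.40 and -0.44 with WT CD8 3 alone, and Il1r1 and Il23r had 0.80 (SE 0.47) and 1.87 (SE 0.99).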

How the data were processed

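Polyadenylated RNA of 12 mouse samples was made into strand-keeping libraries, per the labels' protocols. The authors deposited estimated counts per gene, and the submitters' processing notes name kallisto 0.46.1, FastQC, DESeq2 and GRCm38; whether counting used the strand is not given in the sources used here. All 652212 values were whole, and they were rounded all the same. The authors also deposited a table of log2-scale values after variance stabilization, used in 1 alternative. With edgeR 4.0.16 (R 4.3.3), genes passing filterByExpr (20897 of 54351) were fitted over all 12 libraries with TMM scaling, 4 group means, robust dispersions and the quasi-likelihood test, called at an adjusted p below 0.05, and tested on simulated data. A fold against a group without counts uses a floor of 3 counts per library; intervals and floors cover counting error only. DESeq2 1.42.0 and limma 3.58.1 served as alternatives.

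The members and gene lists were chosen with earlier results of these data known. Named were all members, 8 anchor genes, the 2 called genes with the largest difference per list, direction and comparison, and the 3 to 5 genes most correlated with a member. One gene of the lists counts in their totals and, with 1 motif search, is not reported here.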

Additional observations from a re-analysis of the deposited data

Results flagged for a closer look

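The LN3 difference in spleen minus that in thymus passed edgeR's quasi-likelihood test of the interaction for the pathway genes given here. Since WT spleen cells were enriched for CD8 cells and WT thymocytes were not, organ and cell type cannot be told apart in these differences. On the log2 scale Sox4 differed by 4.23 (adjusted p = 0.000595), Il21 by 4.02 (0.0133), Sox13 by 2.84 (0.00687), Il17re by 2.83 (0.0415) and Bcl6 by 2.29 (0.00662). The opposite sign was found for Tbx21 at -3.15 (adjusted p = 0.0412), Il18r1 at -3.07 (0.0143) and Eomes at -2.94 (0.0193). The Il17re and Tbx21 calls are the least stable, lost in 17 and 13 of 23 alternative settings, while that of Sox4 held in all 23. An interaction also takes in the difference between the WT groups. There, Sox4, Il21, Il17re and Bcl6 were called lower in WT CD8 cells, and Tbx21, Il18r1 and Eomes higher. Of the genes given here, Eomes alone was also called between LN3 spleen and LN3 thymus.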

How the results depend on the processing

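Of 1461 values recomputed for 63 results on single pathway genes, none changed sign, and 213 were no longer called. The ribosomal RNA term was estimated from the thymus groups alone and carried over to spleen. Counts of higher and lower pathway genes, in that order, moved by more than 1.5 times as follows. In spleen against WT CD8 cells, 12 became 6 with the ribosomal RNA term, and with WT CD8 3 alone 12 and 19 became 7 and 12; the cause was not tested. In the LN3 organ comparison, the 1 higher gene became 2 with no filter, 3 with DESeq2, 2 with limma, and 0 with library totals, upper-quartile scaling, only the 2 groups, the ribosomal RNA term or WT CD8 3 alone. Between WT groups, WT CD8 3 alone gave 4 and 3 in place of 13 and 9. The organ interaction gave 3 and 1 in place of 6 and 3 with WT CD8 3 alone, and 5 lower with DESeq2. The labels do not say whether same-numbered LN3 thymus and spleen samples come from the same mouse. In deviations from the group mean, same-numbered LN3 organs had correlations of -0.12, -0.58 and -0.07. Differently numbered ones reached 0.50 (spleen 1 with thymus 2) and 0.49 (spleen 2 with thymus 3). Such deviations also carry technical differences between libraries, so they cannot decide which samples are paired. With a replicate block the LN3 organ comparison gave 0 higher, as with a replicate block within genotype, which also gave 8 higher between WT groups and 3 and 0 in the interaction. Leaving out 1 library gave 3 to 7 and 9 to 16 in thymus, 8 to 13 and 13 to 21 in spleen, 0 to 2 and 0 between LN3 organs, 8 to 13 and 8 to 10 between WT groups, and 5 to 6 and 1 to 4 in the interaction. The lowest fold of the summed interleukin-22 copies ran from 72.0 to 115 in thymus and from 30.97 to 171 in spleen. With 1 library left out, the group of 2 is assumed to vary like the others. Depth limits Il17a, Il23r, Il22ra1 and Cyp1a1, at 0 to few counts.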
